A study of Sus scrofa with 6 samples.

Results

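The genes described here are the autosomal genes outside chromosome 2 that reached 10 estimated counts, summed over their transcripts, in at least 3 of 6 pig embryos. They numbered 102 of the 24040 genes that NCBI Annotation Release 106 of the Sscrofa11.1 genome places on autosomes other than chromosome 2, and 102 of 30216 genes in the tables. LDHB, which also reached the minimum, was left out by rule. The genes were chosen by these measured counts, so their presence above the minimum is a description and no test is given for it.

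Whole embryos at embryonic day 21, 3 of them parthenogenetic (PA) and 3 of them controls (CN), gave 1 RNA library each, all of the Landrace x Yorkshire x Duroc (LYD) strain by their labels and untreated. PA embryos developed from oocytes matured in vitro, which were activated by electric pulses without sperm and placed in surrogate gilts, so that they hold maternal genomes only. CN embryos came from natural mating, and each library is a separate whole embryo that mixes all of its tissues. Fewer cells of a type and less RNA per cell cannot be told apart in such samples.

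The tables held between 3100284 and 3573406 estimated counts per embryo, of which chromosome 2 genes took 82.8% to 92.7%. A further 6.9% to 16.9% lay on entries that the annotation does not place, nearly all on the entry taken as H19. All autosomal genes outside chromosome 2 took between 9544 and 10496 counts per embryo, and 21967 of them (91.4%) were at 0 counts in every embryo. The genes at 0 in all 6 embryos included the albumin and alpha-fetoprotein genes ALB and AFP, whose products are made by fetal liver, and the beta-type globin genes HBB and HBE1 of red blood cells. F2, the prothrombin gene of liver, lies on chromosome 2 and had 7172 to 11597 counts, with overlap between the groups. Within the counts of these tables, a count of 0 allows up to 3 counts, or 0.84 to 0.968 CPM (counts relative to the table's total, scaled), for counting error alone. The study's methods describe Salmon run on the raw reads, but the tables hold only a small part of the reads listed for these libraries and almost only chromosome 2 counts, and the sources used here do not account for this mismatch. A gene listed at 0 is therefore not shown to be unexpressed in the embryo. Of the other markers carried by chromosome 2, 3 were detected at more than 1 count, and their counts, not normalized, did not overlap between the groups. Lack of overlap was common, at 479 of all 1652 genes tested (29.0%) after normalization. PAX6, a regulator of neural and eye development, ranged from 402 to 467 among CN embryos and from 809 to 845 counts among PA embryos, and SYT13, the other neural marker, from 474 to 498 and from 812 to 831. The myogenic factor gene MYOD1 was lower in PA embryos, at 169 to 187 counts against 207 to 249, while the other muscle markers, MYF5 and MYF6, were listed at 0. The part of these differences in the comparisons of PA with CN was not tested.

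A gene on 1 chromosome can resemble another chromosome in several ways. Retrotransposition copies spliced messenger RNA back into the genome, which leaves processed pseudogenes of abundant transcripts such as those of ribosomal proteins. Interspersed repeats of the SINE and LINE families are scattered over all pig chromosomes and are often part of 3′ untranslated regions and of long non-coding RNAs (lncRNAs). Salmon, which made the counts, assigns each read to the transcripts whose sequence it fits, and divides a read that fits several of them.

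The sequences that carry the clearest resemblance are shown first. LOC100523526, a transcribed pseudogene of 40S ribosomal protein S23 on chromosome 1, had the highest count of the 102 genes. Its bases at chr1:113346227-113346346 (minus strand) are set beside the coding bases of RPS23 at chr2:90680109-90680228 (minus strand), both read from the Sscrofa11.1 genome of RefSeq. Capitals mark the positions at which the 2 sequences differ, here 3 of 120.
LOC100523526: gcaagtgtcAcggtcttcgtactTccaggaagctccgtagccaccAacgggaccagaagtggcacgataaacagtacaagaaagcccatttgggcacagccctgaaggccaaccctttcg
RPS23: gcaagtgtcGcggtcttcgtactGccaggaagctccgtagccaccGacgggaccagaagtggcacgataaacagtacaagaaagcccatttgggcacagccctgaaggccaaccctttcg

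CCNE1 encodes cyclin E1, which drives cells from G1 into S phase, and lies on chromosome 6. A part of its coding sequence, chr6:39931095-39931214 (plus strand), did not differ from LOC110259300 at chr2:47633542-47633661 (plus strand), a chromosome 2 gene annotated as G1/S-specific cyclin-E1-like, at any of 120 bases.
CCNE1: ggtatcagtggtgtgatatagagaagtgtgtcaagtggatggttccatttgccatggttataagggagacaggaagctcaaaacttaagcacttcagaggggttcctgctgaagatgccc
LOC110259300: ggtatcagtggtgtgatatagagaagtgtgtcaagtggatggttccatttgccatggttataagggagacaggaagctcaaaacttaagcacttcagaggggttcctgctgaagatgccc

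LOC110261249 on chromosome 6 is annotated as ubiquitin-like protein FUBI, which in FAU on chromosome 2 is the part joined to ribosomal protein S30. Their coding bases at chr6:169122360-169122479 (plus strand) and chr2:7071686-7071805 (plus strand) also had 0 differences in 120.
LOC110261249: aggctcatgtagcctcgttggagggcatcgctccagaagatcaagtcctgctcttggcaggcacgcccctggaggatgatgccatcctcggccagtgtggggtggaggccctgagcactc
FAU: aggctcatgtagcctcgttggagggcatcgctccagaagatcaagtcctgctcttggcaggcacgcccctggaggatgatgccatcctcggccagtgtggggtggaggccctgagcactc

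RPS15A and RPL29 encode proteins of the small and large ribosomal subunits and lie on chromosomes 3 and 13. For each of them the copy on chromosome 2 is a pseudogene, LOC100522598 and LOC100627645. The coding bases of RPS15A at chr3:26777833-26777952 (plus strand) differed from chr2:40284940-40285059 (minus strand) at 4 of 120 positions, and those of RPL29 at chr13:34119915-34120034 (minus strand) differed from chr2:83707212-83707331 (plus strand) at 3 of 120, in capitals as above.
RPS15A: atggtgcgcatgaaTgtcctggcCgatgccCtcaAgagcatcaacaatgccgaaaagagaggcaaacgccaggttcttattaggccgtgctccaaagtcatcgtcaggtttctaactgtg
LOC100522598: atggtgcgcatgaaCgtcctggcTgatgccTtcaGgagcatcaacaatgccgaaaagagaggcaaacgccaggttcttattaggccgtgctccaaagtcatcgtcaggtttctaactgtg
RPL29: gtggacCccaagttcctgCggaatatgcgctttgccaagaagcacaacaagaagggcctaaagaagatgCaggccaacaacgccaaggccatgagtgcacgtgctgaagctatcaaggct
LOC100627645: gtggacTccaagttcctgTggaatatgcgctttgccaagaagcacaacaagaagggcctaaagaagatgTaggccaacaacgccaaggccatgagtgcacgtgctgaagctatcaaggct

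LOC102160368, an uncharacterized lncRNA gene on chromosome 10, stands for the genes that resemble chromosome 2 in repeat bases only. It is shown because, among the lncRNA genes of that kind, its transcript had the most matches on chromosome 2, 7301 of at least 100 bases and 90% identity. Its exon at chr10:29057493-29057612 (minus strand) is set beside a stretch between genes at chr2:137658383-137658502 (plus strand), with 8 differing bases of 120 in capitals.
LOC102160368: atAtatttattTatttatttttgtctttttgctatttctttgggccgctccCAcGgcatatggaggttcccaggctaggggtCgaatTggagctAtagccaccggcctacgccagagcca
chromosome 2: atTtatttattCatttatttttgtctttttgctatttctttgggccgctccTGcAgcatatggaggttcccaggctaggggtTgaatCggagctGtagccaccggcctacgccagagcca

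Of the 102 genes, 80 were annotated as protein-coding, 16 as lncRNA genes, 4 as pseudogenes and 2 as transcribed pseudogenes. The annotation holds 51 transcribed pseudogenes on these autosomes, so 3.92% of them reached the minimum, against 0.478% of the protein-coding and 0.331% of the lncRNA genes. The genes lay on all 17 autosomes considered, with 21 of 2718 annotated genes on chromosome 6, 12 of 2419 on chromosome 1 and 5 of 556 on chromosome 11.

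The largest class was that of named protein-coding genes that belong to none of the families listed, with 55 genes or 0.412% of that class. Among them, TCEANC2 (a gene with domains of transcription elongation factor A), TANC2 (a scaffold protein of synapses) and NOXRED1 (a predicted oxidoreductase) had the highest counts. Of the zinc finger, RING finger and PHD finger genes, 9 of 688 (1.31%) were included, led by the ubiquitin ligase genes RNF168 and RCHY1 and by PHF14. Uncharacterized protein-coding genes gave 7 of 335 (2.09%), and uncharacterized lncRNA genes gave 15 of 4766 (0.315%). Cytosolic ribosomal protein genes and their pseudogenes gave 3 of 124 (2.42%), and these 3 held a summed mean of 2110 counts, nearly all of it on LOC100523526. None of the 67 histone genes, 59 translation factor genes or 136 chaperone and peptidyl-prolyl isomerase genes on these autosomes reached the minimum. Only 102 of all 24040 autosomal genes are included, so 0 in classes of this size says little about them.

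Most of the genes were near the minimum. The median of the mean counts over the 6 embryos was 16.1, with 62 genes under 20 and 6 genes at 100 or more, and 51 of the genes were at 10 or more counts in every embryo. Just inside the limit, judged by the third highest count over the embryos, were PPP1R3G (10), RPL29 (10) and ARHGAP28 (10.1). Just outside were LOC106506288 (9.86), the growth hormone receptor gene GHR (9.7) and PHOSPHO2 (9.65).

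Shared names gave little overlap with chromosome 2. After words such as pseudogene and -like were removed, 0 of the 102 product names were identical to that of a chromosome 2 gene, against 373 of 24040 autosomal genes (1.55%). A chromosome 2 gene shared the letters of the symbol before its first digit (as in RPS, ZNF or TMEM) for 25 genes, or 24.5%, which was near the 22.2% over all autosomal genes. Under other wordings, the products of RPS23, FAU, LOC110259300 and LOC100627645 name the same proteins as those of LOC100523526, LOC110261249, CCNE1 and RPL29. The pseudogene LOC100522598, which RPS15A matched, carries no product name.

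Sequence gave a wider overlap. The transcript with the most counts of each gene was compared with chromosome 2. Each of the 102 transcripts had a match of at least 100 bases at 90% identity or more. The search over all bases was run for these genes only, so no share over all autosomal genes stands beside it. For 17 genes a match was seeded outside the bases that the genome marks as repeats, with a median length of 908 bases (132 to 5100) and a median identity of 96.2%. For the other 85, matches were seeded in repeat bases only, with a median length of 310 bases, a median identity of 95.3% and a median of 5420 matches per transcript. The 17 genes held 58.9% of the counts on the 102 genes, a summed mean of 3040, of which LOC100523526 alone had 2080.

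Searched in the same way by their longest transcripts, 17 of the 102 genes (16.7%) but only 247 of all 24040 autosomal genes (1.03%) had a match seeded outside repeats. Of the 17 genes found by their most-read transcripts, 10 matched the same place on chromosome 2. These 10 are described below as a family, so the 17 are not separate cases of resemblance. The position of the best match also differed between the 2 kinds, in part by definition, since the kinds were split by repeat bases. Outside repeats it overlapped the coding sequence in 11 of 11 genes whose most-read transcript has one. In repeat bases it did so in 1 of 59, in LOC100514110, annotated as zinc finger protein 211. In none of these 85 genes did the best match lie in an exon of a chromosome 2 gene. It was in an intron for 48 and between genes for 37. The best match was 1 of a median of 5420 per transcript, so its place does not show where the others lie.

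A count of words that needs no alignment gave the background for all autosomal genes. Each transcript was cut into words of 31 bases, the default word length of a Salmon index, and words also found on chromosome 2, on either strand, were counted. The longest transcripts of the 102 genes shared a median of 472 words (170 to 1030 between the 10th and 90th percentiles), and those of the other 23938 genes a median of 0 (0 to 96). As a share of all words, the medians were 7.39% and 0%. Words shared with annotated chromosome 2 transcripts alone had medians of 175 and 0.

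The share of genes at the count minimum rose with the number of shared words in every step. It was 1 of 14311 genes with no shared word, 1 of 4834 with 1 to 30, 5 of 2513 with 31 to 100, 28 of 1821 with 101 to 300, 56 of 538 with 301 to 1000 and 11 of 23 with more. Genes at 0 counts in every embryo went the other way, from 99.7% of genes with no shared word to 7.81% of those with 301 to 1000. Longer transcripts hold more words, and the median longest transcript was 6220 bases for the 102 genes and 2570 bases for the others. Among transcripts of 3000 to 6000 bases alone, the minimum was reached by 0 of 3292 genes with no shared word, 11 of 742 with 101 to 300 and 15 of 127 with 301 to 1000. Across all 24040 genes, which are not independent replicates, the mean count had a rank correlation of 0.5 with shared words and 0.28 with length.

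**Figure D1:**
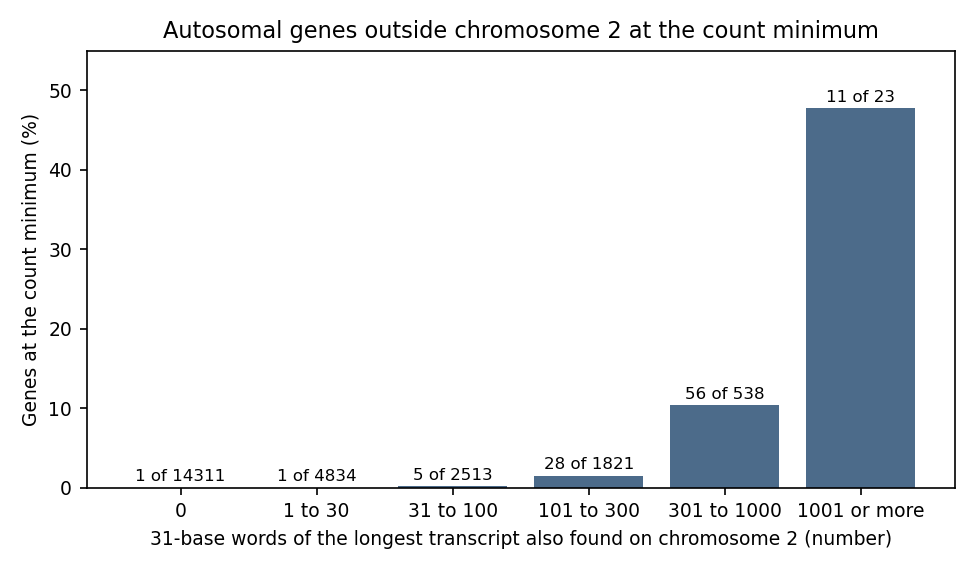
Percentage of the autosomal genes outside chromosome 2 that reached 10 counts in at least 3 of 6 embryos (vertical axis), by how many 31-base words of the longest transcript are also found on chromosome 2 (horizontal axis), with the number of genes above each bar. The bars go from 1 of 14311 genes with no shared word to 11 of 23 genes with more than 1000.

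The 1 gene with no shared word in its longest transcript was MBD1, which encodes a protein that binds methylated CpG. MBD1 has 50 transcripts in the tables, and all of its counts lay on 1 of them. That transcript shares 262 words with chromosome 2, more than any of the other 49. PHF14 gave the same picture, with all counts on the transcript that shares 271 words where the median of its 7 transcripts is 0.

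The same concentration was seen over the genes as a whole. Of the 62 genes with more than 1 transcript in the tables, 51 (82.3%) had all of their counts on 1 transcript. For chromosome 2 genes with several transcripts and a mean count between 10.2 and 53.4, the 10th and 90th percentiles of the 102 genes, at least 99% of the counts lay on 1 transcript in 6 of 89 genes (6.74%). In 55 of the 62 genes the transcripts differ in how many words they share with chromosome 2, and in 47 of these 55 the most-read transcript was one that shares the most. It shared the fewest in 4.

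**Figure D2:**
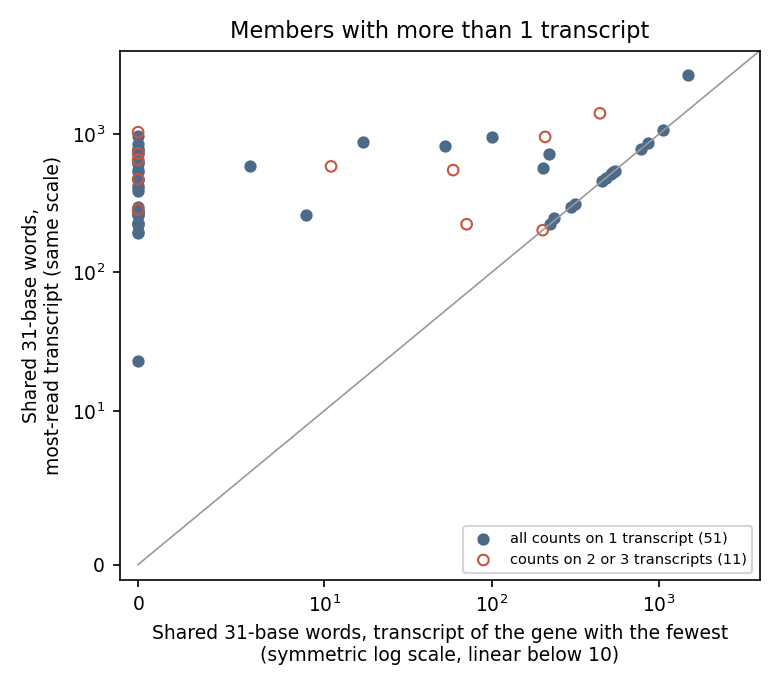
Number of 31-base words shared with chromosome 2 by the most-read transcript (vertical axis) against that of the transcript of the same gene with the fewest (horizontal axis), for the 62 genes with more than 1 transcript. Points above the diagonal line are genes whose counts fell on a transcript with more shared words than another of the gene; 51 filled points have all counts on 1 transcript.

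LOC100523526 had 2309, 1537 and 1894 counts in CN1 to CN3 and 2457, 2235 and 2070 in PA1 to PA3. RPS23 on chromosome 2, whose product is a protein of the small ribosomal subunit, had 14736, 8256 and 9617 counts in CN and 13044, 11807 and 10473 in PA. Both were lowest in CN2, and the pseudogene took 13.5% to 16.5% of the counts of both in each embryo. Per transcript length, LOC100523526 had between 2550 and 3420 TPM, the highest level of the 102 genes. The next highest levels were those of LOC110261249 with a mean of 113 TPM and of the lncRNA gene LOC110260261 with 75.6 TPM. LOC100523526 differed between PA and CN by a log2 fold change of 0.19 (SE 0.17, adjusted p = 0.577 by edgeR), and the ranges of the groups overlapped. The value was 0.4 without CN1 and 0.06 without CN2.

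LOC110261249 had 178, 165 and 191 counts in CN and 205, 159 and 204 in PA, beside 9160 to 13270 counts of FAU. It took 1.19% to 1.77% of the counts of both, and its groups overlapped (log2 fold change 0.04, SE 0.16, adjusted p = 0.906 by edgeR). Its share of the counts of both was lower than that of the S23 pseudogene in each embryo.

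CCNE1 had 101, 84 and 63 counts in CN and 51, 61 and 62 in PA. LOC110259300 had 89, 127 and 161 counts in CN and 100, 102 and 87 in PA. In CN the 2 genes ran in opposite order over the embryos, CCNE1 being highest in CN1 where LOC110259300 was lowest. CCNE1 was lower in each PA embryo than in each CN embryo after normalization, with a log2 fold change of -0.57 (SE 0.24) that did not pass the test (adjusted p = 0.222 by edgeR). Its value was -0.37 without CN1 and -0.73 without CN3. Both genes together had 190, 211 and 224 counts in CN embryos and 151, 163 and 149 in PA embryos, again without overlap, and its log2 fold change of -0.46 (SE 0.19) did not pass either (adjusted p = 0.211 by edgeR).

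RPS15A had 22, 14 and 12 counts in CN and 11, 10 and 13 in PA, and its chromosome 2 pseudogene had 31 to 55. RPL29 had 10, 6 and 5 counts in CN and 11, 9 and 13 in PA, with 0 or 1 count of its pseudogene per embryo. RPL29 was thus the only one of these 5 genes with nearly all counts of the match on itself, 91.7% to 100% of them. Neither gene passed the test, with log2 fold changes of -0.55 (SE 0.35, adjusted p = 0.428) for RPS15A and 0.54 (SE 0.39, adjusted p = 0.478) for RPL29 by edgeR. The value for RPS15A was -0.21 without CN1, and -0.11 (SE 0.25, adjusted p = 0.845 by edgeR) when its counts were summed with those of LOC100522598. That for RPL29 was 0.92 without CN1 and 0.35 without CN3.

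**Figure D3:**
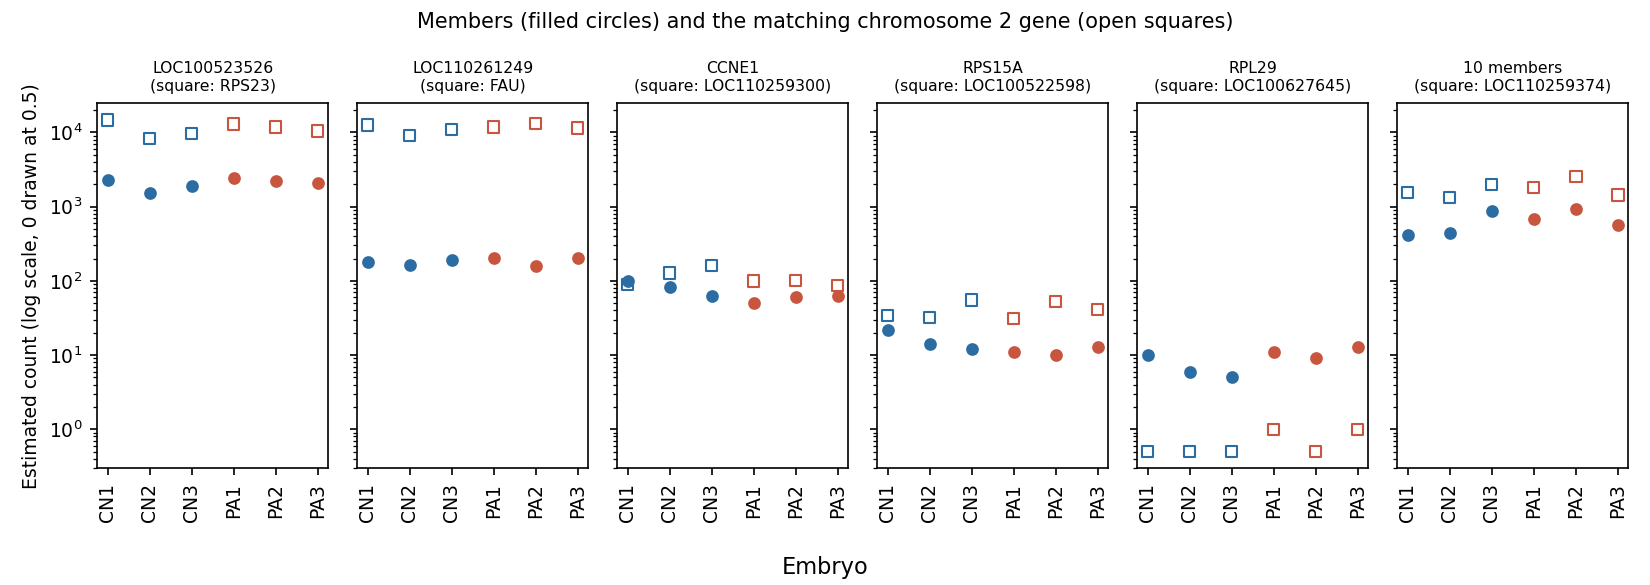
Estimated counts (logarithmic axis) in the 6 embryos (CN in blue, PA in red) of 5 genes and of 10 genes summed (filled circles), beside the chromosome 2 gene that each matches outside repeats (open squares, 0 drawn at 0.5). LOC100523526 and LOC110261249 stay below RPS23 and FAU in every embryo, whereas RPL29 stays above its pseudogene.

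A family of 10 of the 102 genes matched chromosome 2 at 1 place, the uncharacterized gene LOC110259374 (chr2:76648079-76651850, minus strand) or the bases beside it. They lie on chromosomes 1, 4, 7, 8, 12, 14 and 17, with best matches of 243 to 5100 bases at 92.4% to 97.4% identity. All are annotated as uncharacterized except LOC100627949, a lncRNA gene whose product is called transposon Tf2-1 polyprotein. The 2 genes with the most counts were LOC110256218 and LOC110256025.

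LOC110256218 had 192, 194 and 447 counts in CN and 383, 495 and 253 in PA. LOC110256025 had 58, 79 and 149 counts in CN and 127, 161 and 106 in PA. Both were highest in PA2 and next highest in CN3, as was LOC110259374 with 1564, 1334 and 1997 counts in CN and 1798, 2558 and 1431 in PA. The 10 genes together had 417, 439 and 878 counts in CN embryos and 675, 940 and 574 in PA embryos, which is 21.1% to 30.5% of the counts of the family and LOC110259374 together.

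The log2 fold changes of LOC110256218 (0.41, SE 0.36) and LOC110256025 (0.42, SE 0.34) did not pass the test, with adjusted p of 0.573 and 0.515 by edgeR. Both values depended on single embryos, and were 0.92 and 0.89 without CN3, 0.22 and 0.18 without CN1, and 0.15 and 0.24 without PA2. LOC110256649 and LOC110257408 went the other way, with PA below CN in every embryo. The log2 fold change of LOC110257408, -0.89 (SE 0.44), did not pass the test (adjusted p = 0.302 by edgeR), and LOC110256649 is described below.

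**Figure D4:**
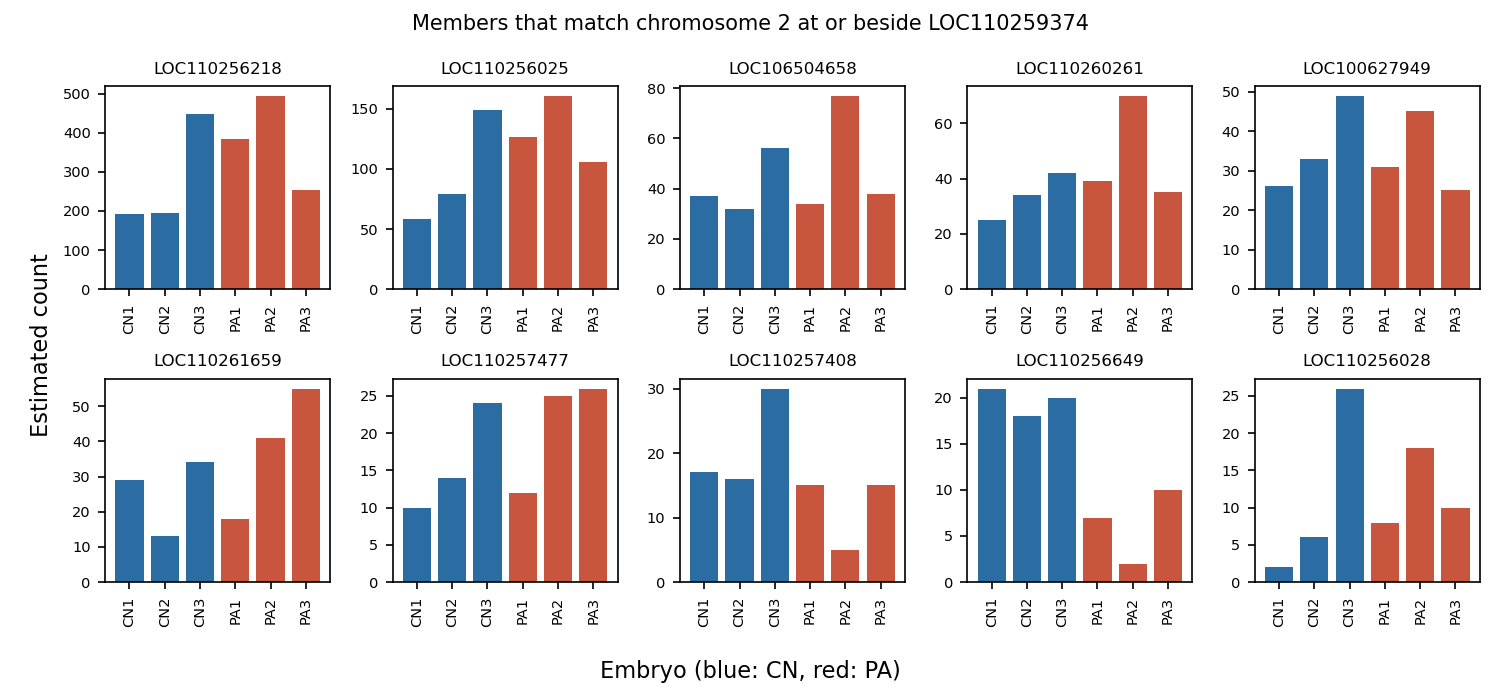
Estimated counts per embryo (bars from 0, CN in blue and PA in red, a separate vertical scale for each gene) of the 10 genes that match chromosome 2 at or beside LOC110259374. LOC110256218 and LOC110256025 are highest in PA2 and CN3, and LOC110256649 ranges from 18 to 21 in the CN embryos and from 2 to 10 in the PA embryos.

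Of the 17 genes with a match outside repeats, 2 remain. DAP3, a protein of the mitochondrial ribosome, matched 132 bases between genes of chromosome 2 at 97.7% identity, and the lncRNA gene LOC106504464 matched 138 bases at 94.2%. They had mean counts of 10.4 and 13.3. For each of them only 1 match, of 1634 and 7454 in all, was seeded outside repeats.

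The genes with matches in repeats only were led by TCEANC2, with 244, 269 and 231 counts in CN and 239, 226 and 384 in PA. PA3 was above the other embryos, and the log2 fold change of 0.13 (SE 0.2) did not pass the test (adjusted p = 0.764 by edgeR). Its best match was 1123 bases at 97.5% identity in an intron of FER. TANC2 had 98, 118 and 104 counts in CN and 89, 94 and 121 in PA. NOXRED1 had 90, 91 and 100 counts in CN and 104, 76 and 86 in PA. The groups overlapped for both, with log2 fold changes of -0.13 each (SE 0.18 and 0.19, adjusted p = 0.73 and 0.751 by edgeR).

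MLST8, a subunit of the mTOR complexes, had 74, 80 and 85 counts in CN and 84, 89 and 56 in PA. KATNAL1, a microtubule-severing ATPase subunit, had 62, 64 and 56 counts in CN and 61, 35 and 68 in PA. Neither passed the test, with log2 fold changes of -0.11 (SE 0.24, adjusted p = 0.838) and -0.21 (SE 0.27, adjusted p = 0.705) by edgeR. The best matches of MLST8 and KATNAL1 were 288 and 310 bases of repeat at 98.6% and 98.1% identity, each between genes.

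The comparison of PA with CN set embryos without a paternal genome beside biparental embryos. The groups also differed in how they were made, from oocytes matured in vitro and carried by surrogate gilts or by natural mating. These differences cannot be told apart from the missing paternal genome. Of the 102 genes, 99 passed the expression filter and were tested, and LOC110256028, ARHGAP28 and PPP1R3G were not. By edgeR's quasi-likelihood test with Benjamini-Hochberg adjustment over 1652 genes, 0 of the 99 had an adjusted p under 0.05, against 108 of all 1652 genes tested (6.54%). With the further condition of an absolute log2 fold change above 1 the counts were 0 of the 99 and 48 of 1652 (2.91%). The number of all genes with an adjusted p under 0.05 fell to 48 without CN2, 54 without CN3, 58 without PA2 and 70 without PA3, and it remained 0 for the 102 genes in each of these fits. At an unadjusted p under 0.05 there were 8 of the 99 (8.08%), 5 lower and 3 higher in PA, against 21.2% of all genes tested. DESeq2 called 0 of the 102 genes and gave an unadjusted p under 0.05 for 4.

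These genes were measured less precisely than the whole. The median SE of the log2 fold change was 0.35 for the 99 and 0.14 for all genes tested. Chromosome 2 genes with mean counts of 10.4 to 54.6, the 10th to 90th percentiles of the tested genes, had a median SE of 0.34, and 9 of 196 (4.59%) passed. The median log2 fold change was -0.11 over the 99 genes and 0.02 over all genes tested, with 59 fitted lower and 40 fitted higher in PA. The share fitted lower was 59.6% of these genes and 47.0% of all genes tested. The direction turned in the fit with at least 10 counts in every embryo, where the median was 0.03 over the 52 genes left. Groups did not overlap after normalization for 15 of the 99 genes (15.2%), 9 lower and 6 higher in PA, against 29.0% of all genes tested.

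By class, 38 of 54 tested genes were fitted lower in PA among the other named protein-coding genes, and 7 of 9 among the zinc, RING and PHD finger genes. The 2 finger genes with at least 10 counts in every embryo, RNF168 and RCHY1, had log2 fold changes of 0.0 (SE 0.27) and -0.16 (SE 0.35). The other 7 lay near the count minimum. Of the 7 uncharacterized protein-coding genes, all of the LOC110259374 family, 5 were fitted higher, and of the 14 uncharacterized lncRNA genes tested 8 were. These class counts include genes near the minimum, and in the first 3 classes 1 gene each (ELMO1, ZNF671 and LOC110256649) that met it through CN embryos alone, so they do not stand apart from how the genes were chosen.

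LOC110256649, of the LOC110259374 family, came nearest to the threshold. It had 21, 18 and 20 counts in CN and 7, 2 and 10 in PA, so that PA was lower without overlap, by a log2 fold change of -1.67 (SE 0.45, adjusted p = 0.0666 by edgeR). It was past the threshold with library totals in place of TMM factors (adjusted p = 0.0404) and with no expression filter (adjusted p = 0.0129). NUP43, a nucleoporin, was the only other gene with a change beyond 1, with 15, 19 and 22 counts in CN and 8, 11 and 7 in PA (log2 fold change -1.14, SE 0.33, adjusted p = 0.0823 by edgeR).

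LOC110256649, ELMO1 and ZNF671 reached 10 counts in CN embryos only, the PA values printed as 10 being below it before rounding, and no gene did so in PA embryos only. ELMO1, an adaptor in engulfment and cell motility, had 14, 11 and 14 counts in CN and 10, 6 and 7 in PA. ZNF671, a zinc finger gene, had 14, 13 and 15 counts in CN and 3, 10 and 9 in PA. Both were lower in PA without overlap, by log2 fold changes of -0.86 (SE 0.36) and -0.98 (SE 0.42), and neither passed the test (adjusted p = 0.217 and 0.226 by edgeR). The value for ZNF671 was -0.62 without PA1 and -1.28 without PA2. All 3 genes met the minimum through CN embryos alone, so a lower level in PA follows in part from how they were chosen.

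Among the genes at 10 or more counts in every embryo, the highest fitted changes were those of LOC102158585, LOC102162486 and SLC13A1. LOC102158585, a lncRNA gene on chromosome 6, had 16, 13 and 13 counts in CN and 34, 32 and 19 in PA. LOC102162486, annotated as putative RNA-binding protein Luc7-like 2, had 14, 15 and 10 counts in CN and 24, 21 and 21 in PA. PA was higher without overlap for both, and their log2 fold changes of 0.97 (SE 0.34) and 0.7 (SE 0.29) did not pass the test (adjusted p = 0.139 and 0.222 by edgeR). The sulfate transporter gene SLC13A1 had 19, 21 and 21 counts in CN and 22, 26 and 45 in PA (log2 fold change 0.54, SE 0.31, adjusted p = 0.375 by edgeR). Its log2 fold change was 0.23 without PA3. The lowest were CCNE1, RPS15A (nearer to 0 when summed with its pseudogene, as given above) and the pseudogene LOC106505679 (-0.57, SE 0.33, adjusted p = 0.376 by edgeR). The value for LOC106505679 was -0.29 without CN2.

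**Figure D5:**
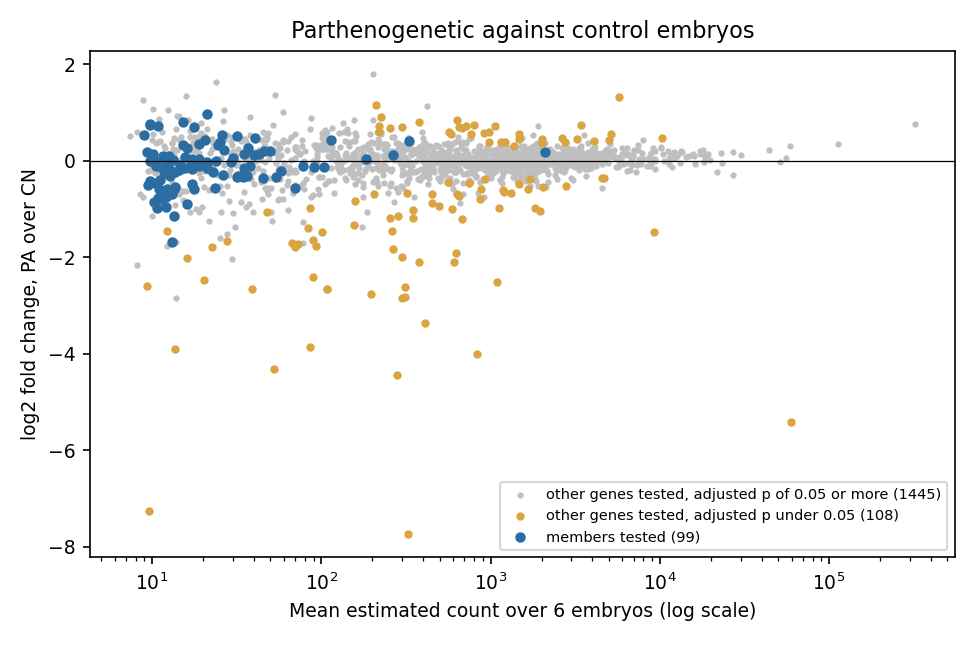
Log2 fold change of PA over CN (vertical axis) against the mean estimated count over 6 embryos (logarithmic horizontal axis) for the 1652 genes tested. The 99 tested autosomal genes outside chromosome 2 (blue) lie between -1.67 and 0.97, and 0 of them is among the 108 genes with an adjusted p under 0.05 (ochre).

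In each embryo the 102 genes together held between 4529 and 5409 counts, or 0.146% to 0.161% of the total. The mean share was 0.155% ± 0.00768 (SD, n = 3) in CN and 0.156% ± 0.00585 (SD, n = 3) in PA, and an exact two-sided permutation test gave p = 0.7, where 3 embryos against 3 cannot go below 0.1. LOC100523526 alone made up 33.9% to 46% of these counts. The number of the genes at 10 or more counts was 84, 96 and 87 in CN and 71, 76 and 90 in PA, so the groups overlapped.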

How the data were processed

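RNA of 3 CN and 3 PA whole embryos was sequenced from TruSeq v2 libraries, which do not mark strand. The submitters' processing notes name STAR 2.7.5, Picard, SAMtools and Salmon 1.3.0 with Sscrofa11.1. The authors deposited Salmon tables with an estimated count for each transcript, not normalized, and TPM values, which are scaled to the same sum per embryo. Effective lengths in the same tables gave the length offset. NCBI Annotation Release 106 assigned transcripts to genes; 81457 of 81496 were rebuilt from the genome, each with exactly the length in the tables.

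The genes and lists were chosen with earlier results of these data known. Counts were summed by gene, rounded and fitted in R 4.3.3 with edgeR 4.0.16 (TMM factors, average transcript length offset, filterByExpr at a minimum count of 10 and total of 15, robust quasi-likelihood test, 1652 genes, Benjamini-Hochberg adjustment, two-sided). The SE of a log2 fold change is its size over the root of the F statistic. DESeq2 1.42.0, the study's test, was an alternative, beside other scalings, filters, the replicate block and leaving out each embryo. Summing 5 genes with their chromosome 2 matches was added after the data were seen.

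Transcripts were matched to chromosome 2 with blastn 2.17.0 (megablast, at least 100 bases and 90% identity), once with seeds outside soft-masked bases only, and 31-base words were counted in Python 3.11.15. Gene classes were set by patterns in product names and symbols. Scripts were tested on simulated data. Genes named are those with the highest counts or TPM overall and by class, those at the count minimum or at it in 1 group only, and the highest and lowest changes; NUP43, MBD1, DAP3, LOC106504464, LOC110257408 and LOC100514110 were chosen after their values were seen. Floors cover counting error only. No 2 embryos of a group had counts close enough to be 1 library (chi-square per degree of freedom 5.78 to 96.5). P-values measure the spread between these embryos. Embryos of a group may share a gilt, which the sources used here do not state for each embryo. Reads shared with near-identical copies can be split between them, so the values of the genes that match chromosome 2 are uncertain to that extent.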

Additional observations from a re-analysis of the deposited data

How the results depend on the processing

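Library totals in place of TMM factors and no expression filter each called 1 of the 102 genes, LOC110256649, also with an absolute log2 fold change above 1; its log2 fold change was -1.73 and -1.67 there, and its adjusted p ranged from 0.0129 to 0.176 over the alternatives that tested it. The other alternatives called 0 of them, with 3 to 7 at an unadjusted p under 0.05. No expression filter gave 196 of 4269 genes with an adjusted p under 0.05, 77 of them with an absolute log2 fold change above 1, and leaving out each embryo in turn gave 34 to 52 (48 to 128 at any fold change). The median log2 fold change of the genes tested was 0.03 with at least 10 counts in every embryo, which left 52 of them (after rounding), and -0.15 to -0.05 when each embryo was left out. The share of the genes in TPM was 0.0285 percentage points higher in PA, against 0.00123 in counts, where leaving out each embryo in turn gave -0.00315 (without CN2) to 0.00448 (without PA1), with the sign also turned without PA2 (-0.00121). Of 272 values of 21 single genes under alternatives, 5 changed sign. These were LOC110261249 with library totals (-0.02) and, when each embryo was left out, LOC110261249 (-0.05 without PA1, up to 0.14), TCEANC2 (-0.1 without PA3, up to 0.25), MLST8 (0.11 without PA3, down to -0.24) and KATNAL1 (0.02 without PA2, down to -0.34), none of them past the threshold either way. The cause of these changes was not tested.

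CN and PA embryos carry the same replicate numbers, but deviations of same-numbered embryos from their group means were correlated at 0.249, 0.119 and 0.0348 over 1652 genes, so the numbers were not taken as pairing. With the replicate block, 0 of the 99 genes had an adjusted p under 0.05, and of all genes 104 did, 43 of them with an absolute log2 fold change above 1; the median was -0.1. The counts limit what can be seen here: 62 of the 102 genes had a mean under 20, and the median SE was 0.35.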
